A study of Mus musculus with 37 samples.

Results

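The first 6 h of the response of Bmal1-deficient macrophages to the TLR4 agonist KLA were read from 2 of the 37 samples of the series, the polyA RNA-seq libraries of Arntl-/- bone marrow-derived macrophages (BMDMs) at 0 and 6 h. The pair was chosen by its labels, and every gene of the table entered. Of the 24016 genes listed, 16007 had a read in at least 1 library of the pair. The 9881 genes analysed had a mean of at least 50 scaled reads per 10000000 over the pair.

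The study followed the inflammatory response of WT and Arntl-/- BMDMs at 0, 6, 24 and 48 h of KLA in 8 RNA-seq libraries, and also mapped chromatin by ChIP-seq, which is not analysed here. The Arntl-/- mice, male and 6 to 9 weeks old on a C57BL/6 background, lack Bmal1 in the whole body and not in macrophages alone. WT mice of the same sex and age range are described as littermates and also as C57BL/6J animals from a supplier. Bone marrow of both genotypes was grown for 6 days with M-CSF, the growth factor that turns marrow precursors into macrophages, and the dose of KLA in the RNA-seq cultures and the number of mice behind a library are not given in the sources used here. With a single library per condition (1 each), differences between times or genotypes lack a replicate check and are given with no p-value.

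KLA (Kdo2-lipid A) is the part of bacterial lipopolysaccharide that TLR4 recognizes. Through the adaptor MyD88 the receptor activates NF-kB and AP-1, which drive genes of cytokines and chemokines, and through the adaptor TRIF it activates IRF3, which drives interferon-beta. Secreted interferon-beta acts back on the cells through factors that include STAT2 and IRF9 and turns on the interferon-stimulated genes, among them the Ifit, Mx and Oas families and the guanylate-binding proteins. Bmal1, the product of Arntl, is a core activator of the circadian clock that binds E-box sequences.

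Levels are given as scaled FPKM, reads per kb of exon and per 10000000 reads divided by a size factor of the library, which was 1.07 at 0 h and 1.03 at 6 h. The Arntl-/- libraries held 18166576 reads on genes at 0 h and 15461830 at 6 h. The WT libraries set beside them held 13080318 and 27036783, so the WT library at 6 h was the deepest and that at 0 h the shallowest of the 4. The scaled FPKM of Arntl (NM_007489, chr7:120350979-120457640 of mm9) was 13.9 at 0 h and 11.3 at 6 h in Arntl-/- cells, from 125 and 83 reads, and 34.3 and 32.3 in WT cells. Both Arntl-/- values lay below both WT values, but the reads were counted over all exons and do not check the deleted part. Of 9 macrophage markers in the table, which include Csf1r, Cd14 and Cd68, none was at least 1.5-fold higher or lower at 6 h, and their summed scaled FPKM was 18017 at 0 h and 21650 at 6 h. Markers of dendritic cells, of B and T cells and of mast cells each summed to at most 37.1 scaled FPKM in either library. Those of neutrophils summed to 407 and 352, with Mpo and Elane at 0 in both. Stromal markers summed to 468 and 506. The sum of the erythroid and megakaryocyte markers, 1847 and 2041, was mostly Pf4, at a scaled FPKM of 1782 and 1987.

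At 6 h, 256 of the 9881 genes stood 1.5-fold or more above their level at 0 h (2.59%) and 267 stood 1.5-fold or more below it (2.70%), on the log2(scaled FPKM + 0.1) scale. The higher genes reached further. At least 2-fold differences were found in 55 genes in the upward direction and 20 in the downward direction, and the log2 change ran from -1.70 to 3.21. The median log2 change of all genes analysed was 0.00, and 5% of the genes lay below -0.48 and 5% above 0.47. The higher genes had a median scaled FPKM of 74.3 at 0 h and 136 at 6 h, and the lower genes 51.4 and 30.5. Transcripts of the higher genes were shorter, with a median of 2209 bases against 2809 bases for all genes analysed and 3232 bases for the lower genes. An exact 95% (Clopper-Pearson) interval of the ratio of reads lay wholly beyond 1.5-fold for 127 of the higher and 71 of the lower genes. Such intervals cover counting error only, because reads amplified by PCR are not independent molecules. At the 1.5-fold line, Lox was just inside with a log2 change of 0.587 and Jagn1 just outside with 0.585. On the lower side Zfp280c, at -0.585, was just inside and Rhobtb1, at -0.584, just outside. The split of calls depended on scaling, since the values as deposited gave 191 higher and 387 lower genes (33.0% higher) and a correction for expression level gave 313 and 164 (65.6%), against 48.9% higher here.

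**Figure D1:**
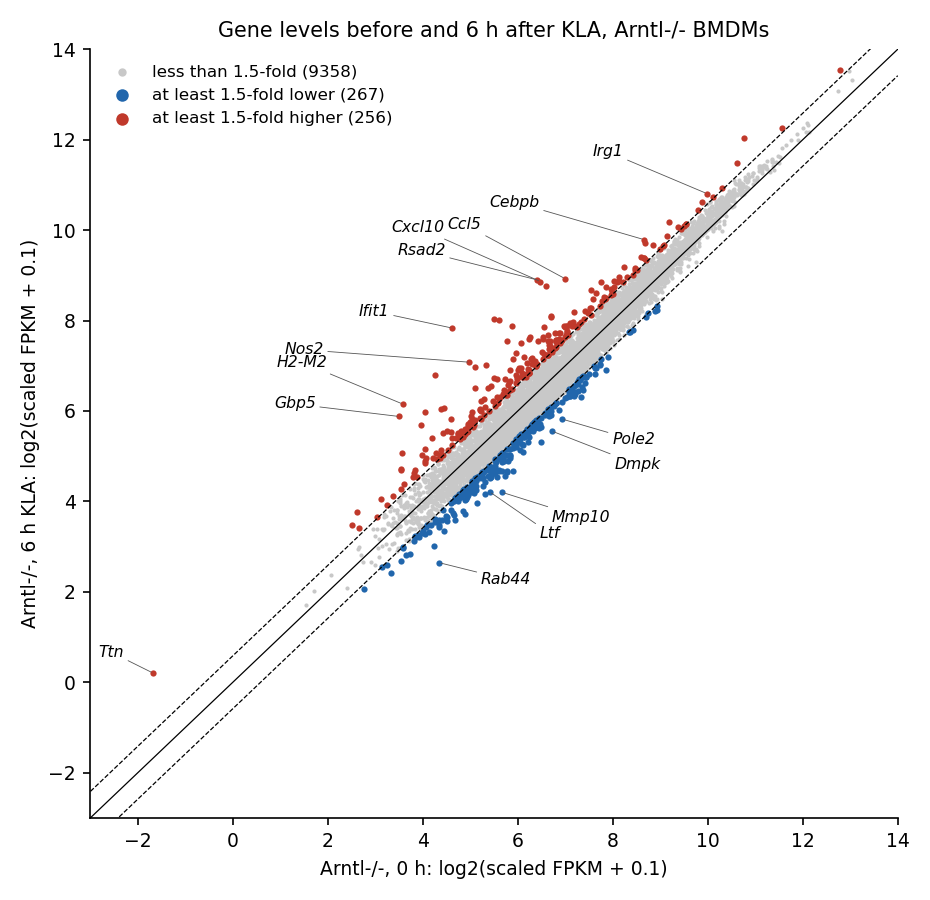
Level of each of the 9881 genes analysed at 0 h (x axis) and 6 h (y axis) of KLA in Arntl-/- BMDMs, both as log2(scaled FPKM + 0.1), with 1 point per gene, a solid line of equal level and dashed lines of 1.5-fold difference. The 256 higher genes (red) spread further from the line of equal level than the 267 lower genes (blue), and Ifit1, with a log2 change of 3.21, stands highest above it.

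Genes of the interferon response led the list. Ifit1, an RNA-binding antiviral protein, had a scaled FPKM of 24.4 at 0 h and 228 at 6 h, from 201 and 1524 reads, a 9.29-fold difference (log2 change 3.21, counting interval 3.01 to 3.44). Rsad2, which encodes the antiviral enzyme viperin, had 84.9 and 477 (log2 change 2.49, interval 2.39 to 2.59). Cmpk2, its neighbour in the genome and a nucleotide kinase of mitochondria, had 45.3 and 260.1 (2.52, interval 2.37 to 2.67). All 3 intervals lie far beyond the 1.5-fold line. H2-M2, a nonclassical MHC class I gene, had a scaled FPKM of 11.8 and 71.1 (log2 change 2.58, interval 2.17 to 3.03). I830012O16Rik, which RefSeq names Ifit3b, had 19.1 and 110.5 (2.52). It is a near copy of Ifit3 (48.5 and 257 scaled FPKM), and reads may be split unevenly between the pair.

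The sequences before the starts of these 5 genes are shown because the genes had the highest log2 changes and interferon-responsive promoters carry a known core, GAAANNGAA. Each is the stretch of 250 bases directly before the RefSeq start in GRCm38.p6, 5′ to 3′ on the strand of the gene, and capitals mark every match, on either strand, to GAAANNGAA, to the AP-1 letters TGANTCA, to the kB letters GGGNNTTTC or to the E-box CACGTG. The matches were found in Ifit1, I830012O16Rik and Rsad2, and none lay in these letters before H2-M2 or Cmpk2. GGGNNTTTC covers only part of the known kB sequences, and other forms, such as ggggaattcc before H2-M2, were not searched or marked. A stretch without capitals may therefore still hold a kB sequence. Mmp10, a matrix metalloproteinase and, of the lower genes with a promoter in the table, the one with the lowest log2 change, is shown beside them.
Ifit1, chr19:34640639-34640888, + strand: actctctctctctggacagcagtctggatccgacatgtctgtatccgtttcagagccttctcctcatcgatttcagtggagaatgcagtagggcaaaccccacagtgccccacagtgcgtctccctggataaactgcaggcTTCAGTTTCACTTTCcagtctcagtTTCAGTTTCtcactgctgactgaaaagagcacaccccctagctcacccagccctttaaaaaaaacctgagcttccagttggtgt
H2-M2, chr17:37483555-37483804, - strand: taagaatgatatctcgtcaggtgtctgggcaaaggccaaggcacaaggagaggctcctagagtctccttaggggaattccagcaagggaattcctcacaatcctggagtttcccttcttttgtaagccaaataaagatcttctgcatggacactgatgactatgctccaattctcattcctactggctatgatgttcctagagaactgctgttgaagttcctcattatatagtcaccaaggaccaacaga
Cmpk2, chr12:26468965-26469214, + strand: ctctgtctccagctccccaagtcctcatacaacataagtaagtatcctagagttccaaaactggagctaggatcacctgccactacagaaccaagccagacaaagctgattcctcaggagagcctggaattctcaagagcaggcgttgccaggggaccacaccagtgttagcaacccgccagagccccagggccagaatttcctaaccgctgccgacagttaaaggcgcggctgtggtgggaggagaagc
I830012O16Rik, chr19:34607707-34607956, + strand: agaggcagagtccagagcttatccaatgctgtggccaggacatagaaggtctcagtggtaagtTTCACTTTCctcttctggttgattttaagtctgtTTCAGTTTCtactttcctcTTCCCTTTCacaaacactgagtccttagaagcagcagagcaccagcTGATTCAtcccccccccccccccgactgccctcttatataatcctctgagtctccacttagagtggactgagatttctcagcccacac
Rsad2, chr12:26456453-26456702, - strand: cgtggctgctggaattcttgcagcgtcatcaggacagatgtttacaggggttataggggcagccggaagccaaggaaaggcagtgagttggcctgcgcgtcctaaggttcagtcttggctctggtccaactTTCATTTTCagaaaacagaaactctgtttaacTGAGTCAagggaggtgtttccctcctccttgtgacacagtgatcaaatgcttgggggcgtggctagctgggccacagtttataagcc
Mmp10, chr9:7502092-7502341, + strand: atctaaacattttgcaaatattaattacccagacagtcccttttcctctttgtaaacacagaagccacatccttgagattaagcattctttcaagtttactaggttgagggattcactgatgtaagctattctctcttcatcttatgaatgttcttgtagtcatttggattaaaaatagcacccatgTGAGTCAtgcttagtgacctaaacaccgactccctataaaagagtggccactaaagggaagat

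In Ifit1 the GAAANNGAA matches began 109, 103 and 84 bases before the start, the first of them overlapping the next. In I830012O16Rik they began 187, 153 and 134 bases before it, with TGANTCA at 88 bases. Rsad2 had GAAANNGAA at 119 bases and TGANTCA at 87 bases, and Mmp10 had TGANTCA at 63 bases. Of the 15 genes with the highest log2 change, 13 had a promoter in the RefSeq table, in 14 windows from 250 bases before to 50 bases after a start. GAAANNGAA was present in 10 of those windows (71.4%), against 7.3% of the 10131 windows of genes analysed and 8.6% of all 32851 windows. The 15 genes include families and near copies, such as Ifit3 and I830012O16Rik, so their windows are not independent of each other. TGANTCA was in 4 windows (28.6%, against 5.0% and 7.8%), GGGNNTTTC in 1 (7.1%, against 4.2% and 4.4%) and CACGTG in 0 (0.0%, against 10.5% and 7.2%). Over 80% of the 267 lower genes had a promoter in the table, and in their 280 windows GAAANNGAA was in 7.9% and TGANTCA in 6.1%. The table held promoters of only 193 of the 256 higher genes and 11 of the 15 genes with the lowest log2 change, under 80% of either set, so the check is void for them and no share is given. A match of letters describes a sequence and is not a binding site.

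Of 60 interferon-stimulated genes analysed from a list of 62, 34 were at least 1.5-fold higher at 6 h and 0 were lower, where 2.59% and 2.70% of all genes analysed were. Their median log2 change was 0.64, beside 0.00 for all genes analysed, and their summed scaled FPKM was 10937 at 0 h and 17624 at 6 h. Isg15, a ubiquitin-like protein that is attached to other proteins during infection, had a scaled FPKM of 97.1 and 433. Usp18, which removes it again and restrains interferon signaling, had 104 and 273. Both were among the higher genes, with log2 changes of 2.16 and 1.39. The antiviral effectors Ifit2 (58.8 and 235 scaled FPKM), Mx1 (57.1 and 120.5) and Mx2 (15.5 and 51.1) were higher as well. Of the Oas genes, whose products sense double-stranded RNA, Oas3 had 146 and 293 scaled FPKM and a log2 change of 1.01, whereas Oas2 had 198 and 278 and 0.49, short of the line.

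Several sensors and transcription factors of the pathway were among the higher genes too. Zbp1, a sensor of nucleic acids, had a scaled FPKM of 76.0 at 0 h and 199.6 at 6 h. The RNA sensors Ddx58 (RIG-I) and Ifih1 (MDA5) had 128 and 233, and 79.0 and 132. Their log2 changes were 1.39, 0.86 and 0.74. Among the transcription factors, Irf7 had a log2 change of 0.82 (scaled FPKM 282 and 499) and Stat2 of 0.65 (252 and 397). Irf9, the DNA-binding partner of Stat2, had 172 and 218 (0.34), and Irf1 had 217 and 228 (0.07), so neither reached the line. Ifnb1, the gene of interferon-beta itself, had 1 read at 0 h and 4 at 6 h, too few to compare.

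Of 14 genes analysed from a list of 15 interferon-inducible GTPases, which attack the membranes around intracellular microbes, 13 were at least 1.5-fold higher (2.59% over all genes) and 0 were lower. Their median log2 change was 1.18, the highest of the 27 functional lists, and their summed scaled FPKM was 1170 at 0 h and 2374 at 6 h. Gbp5, a guanylate-binding protein, had a scaled FPKM of 11.2 and 58.7 (log2 change 2.38, interval 2.08 to 2.71). Gbp2 had 54.3 and 188 (1.79), and Gbp3 had 40.3 and 129 (1.67). The immunity-related GTPases Tgtp1 (16.3 and 62.9 scaled FPKM), Tgtp2 (34.3 and 125), Igtp (92.7 and 194) and Irgm1 (224 and 365) were higher too. Tgtp1 and Tgtp2 are near-identical copies, so how their reads divide is uncertain, and the Gbp genes also share sequence. The exception was Gbp4, with 14.2 and 17.8 scaled FPKM and a log2 change of 0.32.

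**Figure D2:**
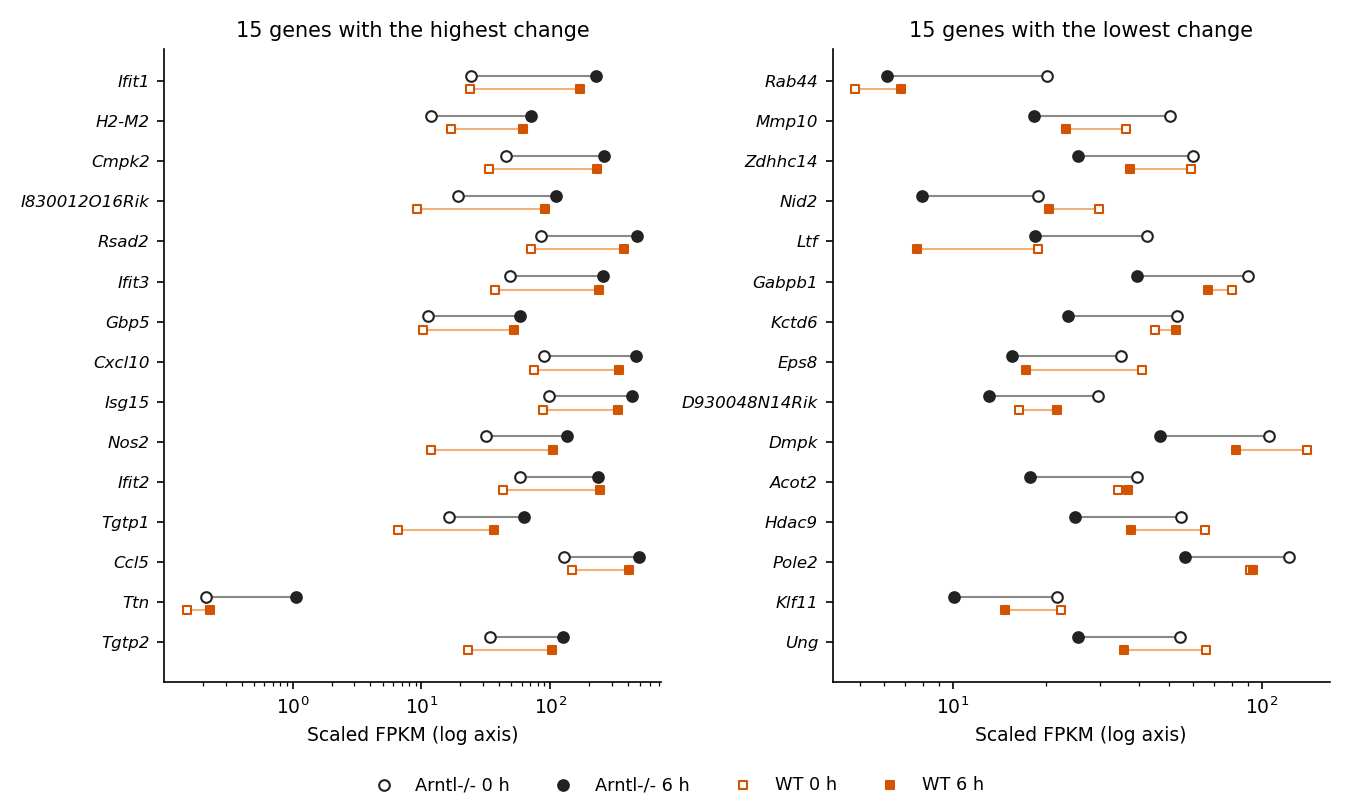
Scaled FPKM (log axis) at 0 h (open) and 6 h (filled) of the 15 genes with the highest (left) and the 15 with the lowest (right) log2 change in Arntl-/- cells, with 1 library per point. Arntl-/- values are black circles and WT values orange squares. Ifit1 went from 24.4 to 228 in Arntl-/- cells and from 24.0 to 169.9 in WT cells, whereas Rab44 went from 20.2 to 6.15 and from 4.84 to 6.80.

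Among the chemokines, most CXC genes and Ccl5 were past the 1.5-fold line and the other CC genes were not. Cxcl10, which attracts T cells and is itself interferon-inducible, had a scaled FPKM of 89.0 at 0 h and 465 at 6 h (log2 change 2.38, interval 2.20 to 2.57). Ccl5 (RANTES) had 127 and 487 (1.94, interval 1.72 to 2.18). The neutrophil attractants Cxcl1 (52.6 and 105 scaled FPKM), Cxcl2 (662 and 1072) and Cxcl3 (281 and 467) had log2 changes of 0.99, 0.70 and 0.73. In all, 4 of 5 CXC chemokines analysed were at least 1.5-fold higher (2.59% over all genes), with a median log2 change of 0.73, and the exception was Cxcl16 (617 and 759 scaled FPKM). The count of 4 was 3 with the correction for expression level and 1 at 2-fold. Of 8 CC chemokines only Ccl5 was at least 1.5-fold higher, and none was lower. The monocyte attractants Ccl2 and Ccl7, with scaled FPKM of 2161 and 1561 at 0 h, had 2515 and 1774 at 6 h. Ccl3 had 1193 and 1416, and Ccl4 had 779.7 and 1037. Each of these 4 was within 1.5-fold, with log2 changes from 0.18 to 0.41.

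Of 11 cytokine genes analysed from a list of 22, 4 were at least 1.5-fold higher and 0 were lower, beside 2.59% and 2.70% over all genes. Il1b, which encodes the secreted cytokine IL-1 beta, had a scaled FPKM of 92.1 at 0 h and 199 at 6 h (log2 change 1.11, interval 0.93 to 1.30). Il1a had 21.3 and 45.5 (1.09), and the colony-stimulating factor genes Csf3 and Csf1 had 37.3 and 74.0 (0.99) and 67.3 and 123 (0.88). Tnf stood high at both times, with 605 and 785 scaled FPKM and a log2 change of 0.38, within 1.5-fold. The IL-1 receptor antagonist gene Il1rn also stayed within it, at 672 and 915 (0.45). The other 11 members were too low for the filter, and among them were genes known as strong targets of TLR4. Il6 had 18 reads at 0 h and 33 at 6 h (scaled FPKM 5.34 and 12.0, counting interval of the log2 ratio 0.30 to 2.09). Il12a, a subunit of IL-12, had 22 and 61 reads (5.58 and 19.0 scaled FPKM, interval 1.04 to 2.54). Csf2 had 2 and 14 reads, and Il23a 0 and 4, where 0 reads allow up to 3.

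Among 36 effector and antimicrobial genes analysed, 14 were at least 1.5-fold higher (2.59% over all genes) and 0 were lower, with a median log2 change of 0.55. Nos2, the inducible nitric oxide synthase, had a scaled FPKM of 31.5 at 0 h and 135 at 6 h (log2 change 2.10, interval 1.94 to 2.27). Ptgs2 (COX-2) and Ptges, which act in sequence to make prostaglandin E2, had 93.4 and 230.3 (1.30) and 408 and 839 (1.04). Clec4e, the mycobacterial glycolipid receptor Mincle, had 578 and 1151 (0.99). Irg1, the enzyme that makes itaconate, stood at 1008 and 1794 (0.83), and Sod2, the mitochondrial superoxide dismutase, at 463 and 816 (0.82). The acute-phase gene Saa3, one of the most highly expressed genes in the table, had a scaled FPKM of 3035 and 4878 (0.68). The NADPH oxidase subunit gene Ncf1, at 973 and 1077, was within 1.5-fold. Alox5 and Ptgs1 had lower values at 6 h, 116 and 79.5 against 159 and 108 at 0 h, also within it. The count of 14 was 10 with the correction for expression level and 17 with upper-quartile scaling.

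The receptor gene Tlr4 had a scaled FPKM of 182 at 0 h and 184 at 6 h (log2 change 0.01, interval -0.08 to 0.11). Its adaptor Myd88 had 367 and 409 (0.16), and the coreceptor Cd14 had 1513 and 2113 (0.48). Of 32 receptor and adaptor genes analysed, Tlr2, the receptor of bacterial lipopeptides, was at least 1.5-fold higher (274 and 459, log2 change 0.75), beside 2.59% of all genes. With upper-quartile scaling 3 genes of the list were higher, and with the correction for expression level 2. Tab1, an activator of the kinase TAK1, was the only one at least 1.5-fold lower (54.2 and 35.6, -0.60), and it was within the line with upper-quartile scaling (-0.58) and the correction for expression level (-0.52). Of 15 NF-kB subunits and inhibitors only Nfkbia, the inhibitor IkB-alpha and itself a target of NF-kB, passed the line. It had 511 and 768 scaled FPKM, at a log2 change of 0.59 that sits on the line. It was 0.53 with the values as deposited and 0.45 with the correction for expression level, within the line, and its counting interval was not wholly past it. Rela had 269 and 301, and Tnfaip3 (A20) 253 and 312, both within 1.5-fold.

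Among 21 AP-1, ATF and early-response factors, 7 were at least 1.5-fold higher (2.59% over all genes) and 0 were lower. Cebpb, a transcription factor of the acute-phase and inflammatory response, had a scaled FPKM of 402 at 0 h and 886 at 6 h (log2 change 1.14, interval 1.06 to 1.22). Klf2, which restrains inflammation in myeloid cells, had 85.7 and 186 (1.12). Ier3, Batf, Maff, Ier2 and Fos followed, with log2 changes from 0.65 to 0.83. Jun, Egr1 and Myc did not reach the line, at 703 and 793, 65.2 and 72.7, and 133 and 148 scaled FPKM. Of 22 feedback inhibitors, Socs3, an inhibitor of cytokine receptor signaling, had 185 and 407 (1.14). Zfp36, which destabilizes cytokine mRNAs, had 343 and 517 and lay at the line with 0.59. These 2 were the higher genes of the list, and only 1 was with the values as deposited or the correction for expression level. No feedback inhibitor was lower.

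The genes with the lowest log2 change had varied functions. Rab44, of the Rab GTPase family, had a scaled FPKM of 20.2 at 0 h and 6.15 at 6 h, a 3.24-fold lower level (log2 change -1.70, interval -2.13 to -1.31). Mmp10 had 50.6 and 18.3 (-1.46, interval -1.85 to -1.10). The protein acyltransferase gene Zdhhc14 had 59.8 and 25.4 (-1.24), and the basement membrane gene Nid2 18.8 and 7.93 (-1.23). Gabpb1, a subunit of the transcription factor GABP, had 89.8 and 39.4 (-1.19). Eps8, a regulator of actin, had 35.1 and 15.5 (-1.17), and the histone deacetylase gene Hdac9 54.6 and 24.9 (-1.13). Each of these 7 genes was at least 2-fold lower at 6 h. Ltf, which encodes lactoferrin of neutrophil granules, had 42.4 and 18.4 scaled FPKM (-1.21), and Ngp, another granule protein gene, 83.4 and 55.2 (-0.60). They were 2 of the 3 neutrophil markers analysed. The third, Csf3r, had 257 and 259. In bulk samples, fewer cells of a type and less RNA per cell cannot be told apart.

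The lowest median of the 27 functional lists was that of the cell cycle genes. Of 69 cell cycle and DNA replication genes analysed, 7 were at least 1.5-fold lower (2.70% over all genes) and 0 were higher, and 55 had a log2 change below 0, with a median of -0.25. The replicative helicase subunits Mcm7, Mcm2 and Mcm4 had scaled FPKM of 473 and 298, 345 and 219.8, and 325 and 216 at 0 and 6 h (log2 changes -0.67, -0.65 and -0.59). Cdc6, which loads the helicase, had 86.0 and 55.5 (-0.63). The checkpoint kinase Chek1 had 46.6 and 29.1 (-0.68), Uhrf1, which maintains DNA methylation, 490.0 and 320.0 (-0.61), and Pole, the catalytic subunit of DNA polymerase epsilon, was at -0.59. Outside the list, the polymerase subunit Pole2 (122 and 56.4 scaled FPKM, -1.11) and the uracil-DNA glycosylase Ung (54.3 and 25.5, -1.09) were among the 15 genes with the lowest log2 change. The proliferation marker Mki67 (271 and 319 scaled FPKM) and the mitotic kinase Cdk1 (217 and 184) were within 1.5-fold. None of the 7 had a counting interval wholly beyond 1.5-fold, and the count was 9 with the values as deposited and 5 with upper-quartile scaling or the correction for expression level.

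Among 12 clock genes analysed from a list of 19, only Nfil3 was at least 1.5-fold higher (2.59% over all genes). Nfil3, a repressor of the clock output and an immune regulator, had 47.2 and 79.0 scaled FPKM (log2 change 0.74). The median of the 12 was 0.01 (-0.05 with the values as deposited, below 0). With a filter of 20 scaled reads 16 clock genes were analysed, with a median of -0.17, 1 higher and 2 lower. Of all genes 386 were then higher and 438 lower. Cry1 had 182 and 154 scaled FPKM, Per2 24.0 and 29.3, and Clock 55.4 and 50.4. Nr1d1 and Nr1d2, both activated by Bmal1, were below the filter. Nr1d1 had 19.6 and 12.6 scaled FPKM in Arntl-/- cells and 44.5 and 33.9 in WT cells. Nr1d2 had 6.15 and 3.23, and 70.6 and 60.2. Their log2 changes in Arntl-/- cells were -0.64 (interval -1.03 to -0.26) and -0.91 (interval -1.52 to -0.37). Both genes were lower in either Arntl-/- library than in either WT library.

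The counts in the remaining lists are given as a description, beside 2.59% higher and 2.70% lower over all genes. None of 34 identity genes, 72 genes of oxidative phosphorylation or 25 of the TCA cycle passed the line in either direction, except 1 lower identity gene with the correction for expression level. Of 28 glycolytic and HIF-1 target genes, Hk2 (hexokinase 2) was higher, at 143 and 249 scaled FPKM (log2 change 0.80). In sterol and fatty acid synthesis 2 of 31 were higher, Fdps among them at 185 and 309. Among 54 lysosomal genes, 1 was lower, Sgsh, at 197 and 123. The chemoattractant receptor genes Ccrl2 (62.0 and 111) and Cx3cr1 (102 and 172) were the 2 of 10 that were higher. In MHC class II, H2-Ab1 (69.4 and 111) and Cd74 (68.6 and 108) were higher among 4 genes. Class I genes such as H2-K1 (2596 and 3005) and B2m (3426 and 4051) were within 1.5-fold, and 1 of 18, Psmb10, passed it. Other counts were 1 higher of 18 LXR and PPAR targets, 1 of 35 unfolded protein response genes, 1 of 29 Nrf2 targets, and 2 of 22 adhesion and costimulatory genes. For 32 cell death genes they were 2 higher and 1 lower. With the values as deposited the higher genes numbered 0 in the LXR, unfolded protein, adhesion and MHC class I lists and 1 in sterol synthesis, and with the correction for expression level 4 in sterol synthesis.

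**Figure D3:**
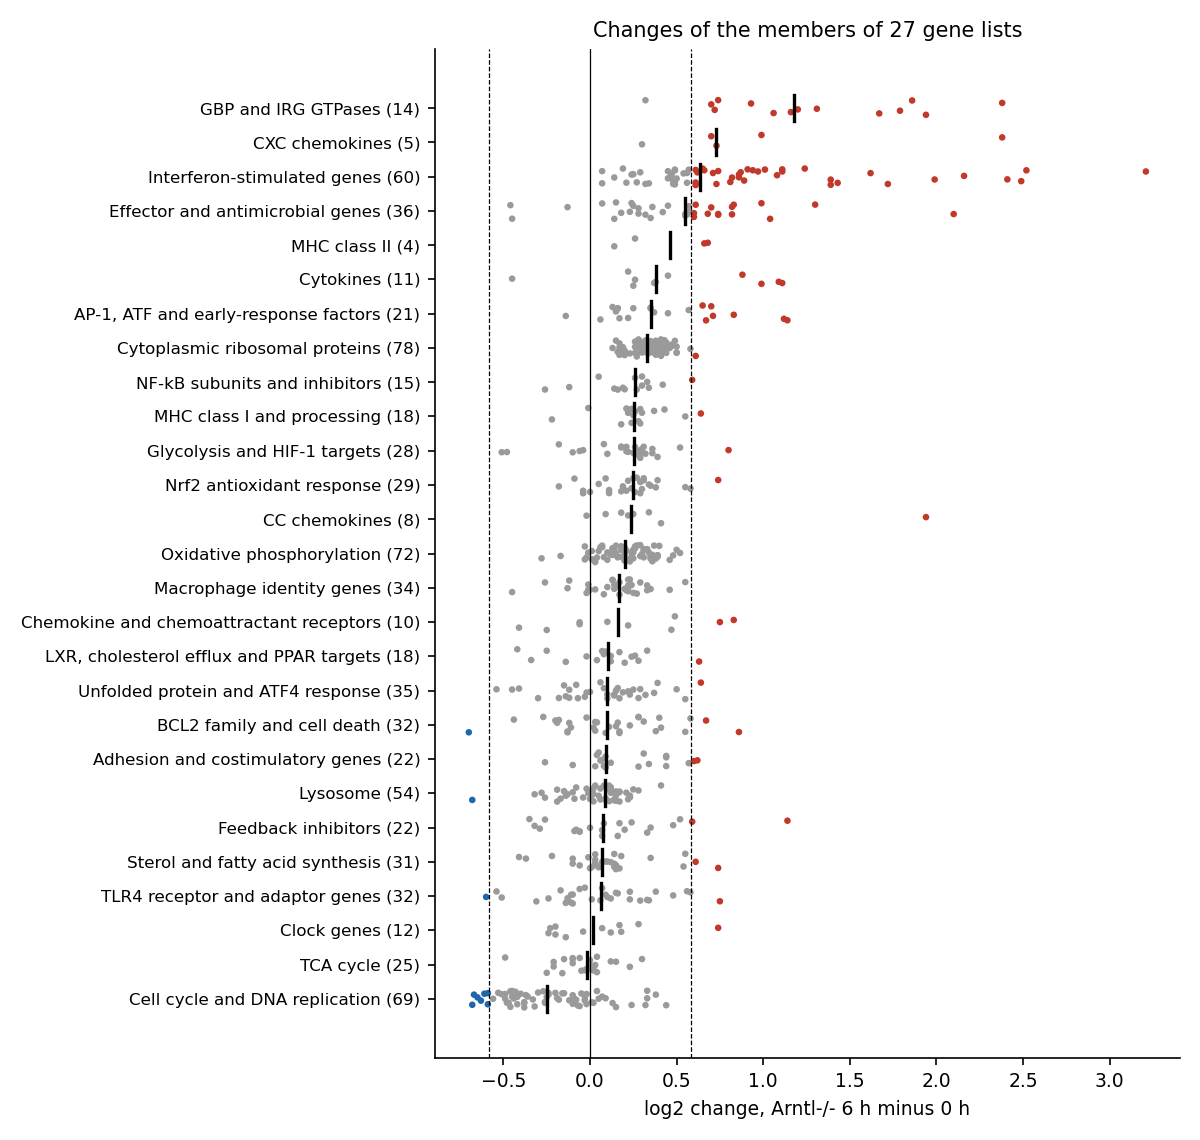
Log2 change (x axis) of each analysed member (points) of the 27 functional lists in Arntl-/- cells, with the number of members in brackets, a black bar at the list's median and dashed lines at 1.5-fold. Red points are past the 1.5-fold line upward and blue points downward. The GTPases have the highest median (1.18) and the cell cycle genes the lowest (-0.25), and no interferon-stimulated gene lies below 0.

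The change also moved with the level of a gene. When genes were ordered by their Arntl-/- level and divided into 5 equal groups, the median log2 change was -0.10 in the lowest and 0.13 in the highest. The lowest group held 164 of the lower genes and 71 of the higher ones, and the highest group 5 and 42. In WT cells, where the library at 6 h was the deeper of the pair, the order was the other way round, with medians of 0.08 and -0.24. All 78 cytoplasmic ribosomal protein genes, which are highly expressed, had a log2 change above 0 in Arntl-/- cells, with a median of 0.33 and 0.14 after the correction for expression level. Only Rpl39 passed the 1.5-fold line, and neither with the values as deposited nor with that correction did any. In WT cells their median was -0.62, and -0.17 after the correction. Medians of 4 other lists turned sign with that correction, which were the CC chemokines (0.23 to -0.01), chemoattractant receptors (0.16 to -0.06), lysosome (0.08 to -0.08) and unfolded protein response (0.10 to -0.02). The part of depth in these values was not tested.

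**Figure D4:**
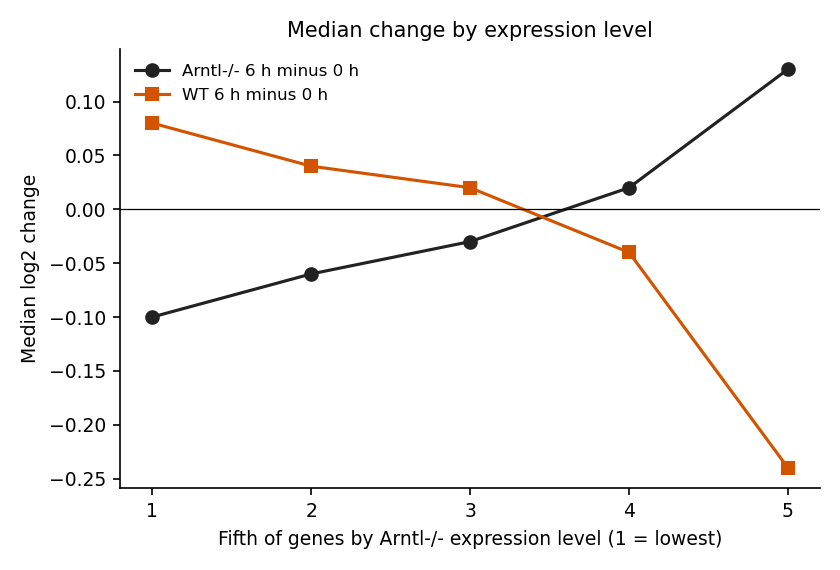
Median log2 change from 0 to 6 h (y axis) in 5 groups of genes ordered by their level in Arntl-/- cells (x axis, from lowest to highest), for Arntl-/- (black circles) and WT (orange squares) cells, with 1 library per time. The Arntl-/- medians go from -0.10 to 0.13 and the WT medians from 0.08 to -0.24.

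To set the response beside that of WT cells, the same difference was taken between the WT libraries, which share no library with the Arntl-/- pair. Over the same 9881 genes, 428 passed the 1.5-fold line upward (4.33%) and 316 downward (3.20%) in WT cells, with a median log2 change of -0.03. With the values as deposited that median was 0.13, and 867 genes were higher and 73 lower. The genes that were higher in both genotypes numbered 112, which is 43.8% of the Arntl-/- list and 26.2% of the WT list. On the lower side the shared genes numbered 34, 12.7% and 10.8%. Of the 256 genes higher in Arntl-/- cells, 199 (77.7%) had a WT log2 change above 0, with a median of 0.49, beside 45.7% of all genes analysed. With the values as deposited these shares were 83.2% and 67.2%. The 267 lower genes had a WT median of -0.15. Across the 9881 genes the 2 log2 changes had a Pearson's r of 0.213 and a Spearman's rho of 0.0329, a description over genes, which are not independent and share these 4 libraries.

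**Figure D5:**
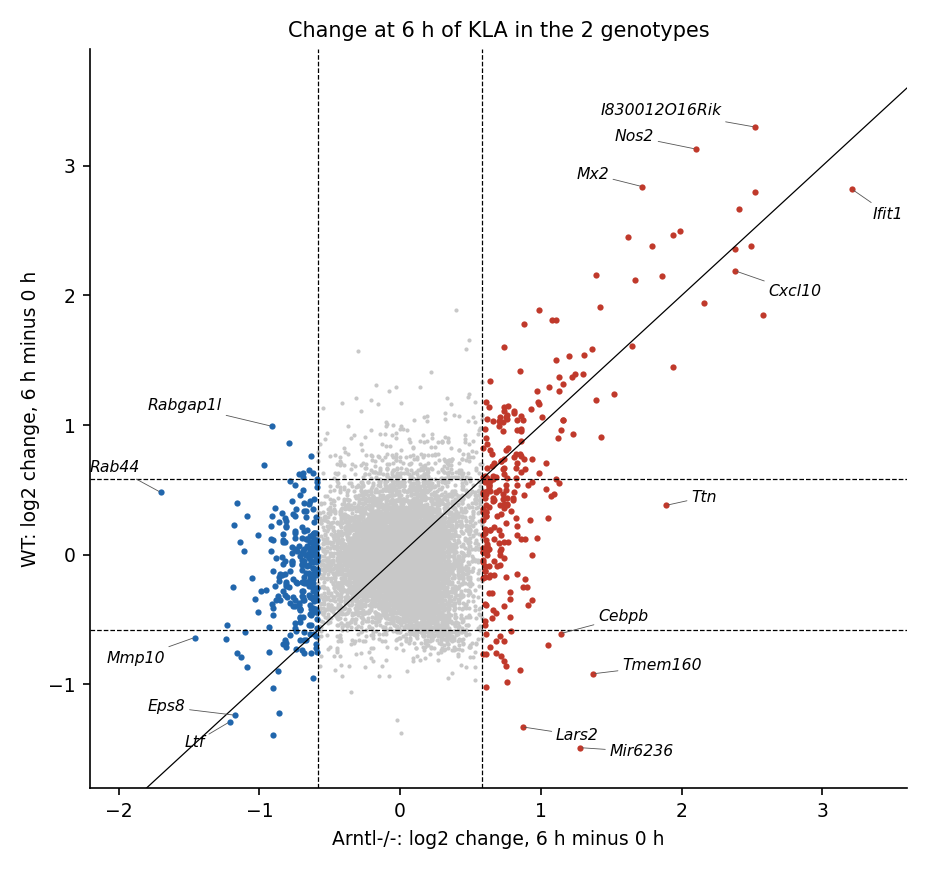
Log2 change from 0 to 6 h of KLA in Arntl-/- (x axis) and WT (y axis) cells for the 9881 genes analysed, with 1 point per gene, dashed lines at 1.5-fold and a solid line of equal change. Red and blue points are the 256 and 267 genes at least 1.5-fold higher or lower in Arntl-/- cells. Ifit1, Cxcl10, Nos2 and other induced genes lie at the upper right, and Mir6236, Lars2, Tmem160 and Cebpb lie at the lower right.

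The interferon lists were alike in direction in both genotypes. Of the 60 interferon-stimulated genes 43 were at least 1.5-fold higher in WT cells, with a median log2 change of 0.79 beside 0.64 in Arntl-/- cells. All 14 GTPases were higher in WT cells, with a median of 1.42 beside 1.18. The summed scaled FPKM of the first list was 9885 at 0 h and 15344 at 6 h in WT cells, below the Arntl-/- sums of 10937 and 17624 at either time. For the GTPases the sums were 897 and 2079, against 1170 and 2374. The difference between the genotypes was not tested, because it would need replicates.

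Several genes started higher in Arntl-/- cells and had a smaller log2 change there. Nos2 had 31.5 scaled FPKM at 0 h and 135 at 6 h in Arntl-/- cells and 11.9 and 105 in WT cells, so its level was higher in Arntl-/- cells at both times. Its log2 change was 2.10 (interval 1.94 to 2.27) beside 3.13 (2.85 to 3.44). Il1b had 92.1 and 199 in Arntl-/- cells and 46.2 and 162 in WT cells, and log2 changes of 1.11 and 1.81. Csf1 (67.3 and 123, WT 24.6 and 84.7), Cxcl1 (52.6 and 105, WT 13.0 and 48.6) and Mx2 (15.5 and 51.1, WT 6.87 and 49.9) had the same order. These 5 genes were chosen after their values were seen. The level at 0 h also enters the log2 change, so a higher start and a smaller change are tied by construction. Ccl5 differed, with 127 and 487 in Arntl-/- cells and 149 and 407 in WT cells, and log2 changes of 1.94 and 1.45.

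The opposite order was seen for Cebpb, which had 402 and 886 scaled FPKM in Arntl-/- cells and 740.3 and 485 in WT cells, a log2 change of 1.14 against -0.61 (1.01 and -0.33 after the correction for expression level). Saa3, at 3035 and 4878, had 5559 and 3293 in WT cells, a log2 change of 0.68 against -0.76. After that correction the Saa3 values were 0.38 and 0.01, so no opposite difference was left. Its 12.4 reads per base of exon at 6 h in Arntl-/- cells are above the stated limit of 3 tags per position. That limit therefore cannot be taken to have held for Saa3. Wfdc21, a small secreted protein gene, had 99.8 and 206, and 184 and 113 in WT cells. At 0 h these genes had the lower level in Arntl-/- cells, and at 6 h the higher. The effector list as a whole had 14 higher genes in Arntl-/- cells and 5 higher and 4 lower in WT cells, where 4.33% and 3.20% of all genes were. Its median log2 change was 0.55 and -0.01, but 0.36 and 0.23 after the correction for expression level. On the other side, Trim6, a ubiquitin ligase gene of the interferon pathway, had 18.2 and 14.7 in Arntl-/- cells and 6.42 and 19.3 in WT cells (log2 change -0.30 against 1.57). In total 20 genes were at least 1.5-fold higher in Arntl-/- and lower in WT cells, and 9 were the reverse. Of these, 12 and 2 stayed so with the correction for expression level, and 9 and 9 with the values as deposited, and 8 and 0 had both counting intervals wholly past the line.

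The later Arntl-/- libraries, at 24 and 48 h, show where the 6 h value stood in the course. They share the 0 h library with the comparison above, so only levels are given. Of the 256 higher genes 82 (32.0%) had their highest value at 6 h, 42 at 24 h and 132 (51.6%) at 48 h. Of all genes analysed 18.9% were highest at 6 h, 32.1% at 48 h and 29.4% at 0 h, where a gene chosen as higher at 6 h cannot be, so these shares are no like-for-like background. Cxcl10 was highest at 6 h, at 465 scaled FPKM, with 241 at 24 h and 94.6 at 48 h. Gbp5 was highest at 6 h as well, with 58.7, 46.1 and 28.7 at the 3 later times. Nos2 was higher at each time, from 135 at 6 h to 274 at 24 h and 523 at 48 h, and Ifit3 had 257, 259 and 563. Rsad2 had 477, 326 and 495, and Isg15 433, 400.3 and 652. Of the 60 interferon-stimulated genes 45 were highest at 48 h and 6 at 6 h, and of the 14 GTPases 5 and 6.

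The lower genes differed in what followed. Of the 267, 111 had their lowest value at 6 h and 125 at 48 h, and by their choice none could have it at 0 h. Zdhhc14 was back at 56.3 scaled FPKM at 24 h and 64.7 at 48 h, from 25.4 at 6 h, and Rab44 had 6.15, 17.0 and 11.4. Hdac9 went on to 13.2 and 12.0, and Ung to 11.8 and 7.79. Of the 69 cell cycle genes 64 had their lowest value at 48 h, as did 36.7% of all genes analysed.

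Higher genes lay near each other in the genome. Of the 256 higher genes 56 (21.9%) had another within 100 kb, while 792 of the 9881 genes analysed (8.0%) lay within that distance of a higher gene. For the lower genes it was 32 of 267 (12.0%), against 6.5% of all. The longest run was chr19:34548274-34724499 of mm9, with Ch25h (34.2 and 91.3 scaled FPKM, log2 change 1.42), Ifit2, Ifit3, I830012O16Rik and Ifit1. Ch25h encodes cholesterol 25-hydroxylase, which makes an antiviral oxysterol. The next held Gbp5, Gbp7, Gbp3 and Gbp2 at chr3:142159898-142300972. Other runs of 3 were Mnda, Ifi203 and Ifi205 on chromosome 1, Tgtp1, Tgtp2 and Ifi47 with Gm12250, Igtp and Irgm2 and with Slfn5, Slfn8 and Slfn1 on chromosome 11, and Cfb, Hspa1b and Hspa1a on chromosome 17. Most runs are families of related genes, among which reads may be shared.

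Among the 15 genes with the highest log2 change, 1 was a gene of very low level. Ttn, which encodes the muscle protein titin, had a scaled FPKM of 0.212 at 0 h and 1.05 at 6 h, from 54 and 219 reads over a very long transcript. Its log2 change of 1.89 is understated by the pseudocount, and the counting interval of its log2 ratio was 1.88 to 2.78. It had 0.24 and 0.171 at 24 and 48 h in Arntl-/- cells, and 0.15, 0.226, 0.972 and 0.349 at 0, 6, 24 and 48 h in WT cells, so 1 WT library stood close to the 6 h value in Arntl-/- cells.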

How the data were processed

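PolyA RNA of BMDMs was sequenced paired-end in 8 libraries, 1 per genotype and time. The authors used STAR for alignment to mm9 and HOMER to count tags on either strand of RefSeq exons (with a stated limit of 3 tags per position, 1 transcript per gene), and deposited FPKM per 10000000 reads. Antisense or overlapping genes therefore cannot be told apart. The deposited table also gave the exon length, another unit used here in bases. Of its lines 1, a fragment, was left out, and 4 value columns of no sample used here were not read. FPKM times length fell on whole multiples of 1 read (within 0.1 read, 100.0% of low values), which gave the reads behind each value. These reached 30.2 reads per base of exon at 6 h in Arntl-/- cells. A limit of 3 tags per position, even on each strand, would leave fewer, so it cannot be taken to have held. Each library was scaled by its median-of-ratios size factor over the 8 libraries (0.918 to 1.13). Genes with a mean of at least 50 scaled reads per 10000000 over the Arntl-/- libraries at 0 and 6 h were analysed, and log2 changes used a pseudocount of 0.1. With 1 library per condition no test was made. Depth limits each value by its reads, and exact 95% intervals of the ratio of reads cover counting only.

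Named genes are the 15 with the highest and 15 with the lowest log2 change, up to 5 of each list, those in the study's text, the 5 highest and 5 lowest by Arntl-/- minus WT log2 change among genes whose mean over the 4 libraries passes the filter, and up to 10 with opposite directions. Any other gene was named after its values were seen. The members and the 35 lists were chosen with earlier results of these data known. Alternatives were the values as deposited, other scalings, pseudocounts, filters and sizes of change, a lowess correction for expression level, and leaving out genes over 1 read per base. Promoters are from RefSeq (GRCm38.p6). Steps were tested on simulated data. Tools were statsmodels 0.14.6 (lowess), scipy 1.17.1 (intervals), matplotlib 3.10.9, pandas 2.3.3 and numpy 2.4.6 in Python 3.11.15.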

Additional observations from a re-analysis of the deposited data

Results flagged for a closer look

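In 29 genes the log2 change at 6 h was past 1.5-fold in opposite directions in the Arntl-/- and WT cells, and the 10 with the largest smaller change are given. With the correction for expression level 12 of the 20 that were higher in Arntl-/- cells and 2 of the 9 that were lower stayed past the line in both genotypes. With 1 library per condition the difference between genotypes was not tested, and no group had enough samples to look for a sample far from the others. Mir6236 had a log2 change of 1.28 in Arntl-/- cells (scaled FPKM 1740 and 4232) and -1.49 in WT cells (4975 and 1777). Lars2, a mitochondrial leucyl-tRNA synthetase gene, had 0.87 and -1.33, and Rn45s, the ribosomal RNA precursor, 0.76 and -0.98. Mir6236 and Lars2 had a course like that of Rn45s. Each was lowest at 6 h in WT cells and at 0 h in Arntl-/- cells, and highest at 48 h in both. Whether they are separate responses was not tested. With the correction for expression level the values of Rn45s were 0.38 and -0.04, both within 1.5-fold, and those of Rrbp1, given below, were 0.56 and -0.43, also within it. Mir6236, Lars2 and Rn45s had 10.8, 7.23 and 30.2 reads per base of exon at 6 h in Arntl-/- cells. These lie above the limit of 3 tags per position that the authors stated, even if it is counted on each strand. That limit therefore cannot be taken to have held for these values. Tmem160 had 1.37 and -0.92, and the ribosome-binding protein gene Rrbp1 0.72 and -0.78. The histone genes Hist1h2ao and Hist1h2ap, near-identical copies, had 0.85 and -0.89, and 0.74 and -0.82. The transcript 0610038B21Rik had 0.75 and -0.86. In the other direction Rabgap1l had -0.91 in Arntl-/- and 0.99 in WT cells, and AW209491 -0.79 and 0.86.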

How the results depend on the processing

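No named gene past the line in Arntl-/- cells changed sign under another scaling, pseudocount or the correction for level. The size of the change was less steady. It counted as moved in 20 named genes and the same in 159 with the values as deposited, and in 48 and 131 with the correction for level. Of the 256 genes at least 1.5-fold higher and 267 lower, a filter of 20 scaled reads gave 386 and 438, one of 200 gave 124 and 83, a mean FPKM of at least 1 gave 1167 and 1271, and no filter 2255 and 2270. Counting 2-fold differences gave 55 and 20, and counting intervals wholly past 1.5-fold 127 and 71. The correction for expression level gave 164 lower genes. More genes were higher than lower with that correction, with upper-quartile scaling (293 and 227), with the filter of 200, at 2-fold and by intervals, and a pseudocount of 1 gave 245 of each. The share of higher genes also higher in WT cells, 43.8%, was 63.4% with the values as deposited, 70.9% at 2-fold and 55.9% for intervals past 1.5-fold. Of the WT list the shared genes were 26.2%, but 121 of 867 with the values as deposited, 37.9% at 2-fold, 41.0% for such intervals and 47.3% with the filter of 200. Other alternatives moved the higher count between 191 and 313. Of 70 counts of list members, 11 moved beyond 1.5 times with the values as deposited and 10 with the correction for level. No paired analysis was possible because each condition has 1 library, so none could be left out either. Variation between cultures or mice, depth, and the time or genotype of a library cannot be told apart.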
